A study of Mus musculus with 4 samples.

Results

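Wnt receptors, modulators and target genes were described in the fibro-adipogenic progenitors (FAPs) of mouse skeletal muscle, stromal cells that were separated by their surface DPPIV, the peptidase encoded by Dpp4. The members are 38 genes chosen by their symbols, of 24421 symbols counted: the frizzled receptors, the LRP co-receptors, the ROR and RYK receptors, the R-spondins with their LGR receptors and E3 ligases, the TCF/LEF transcription factors, the feedback inhibitors Axin2, Nkd1 and Nkd2, and the secreted antagonists with the receptor Kremen1. The Wnt ligands themselves are not members, and the question was whether the FAPs that hold more Wnt ligand transcript also hold more of the genes that receive, limit and respond to Wnt. All 38 symbols had a row of counts.

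Each of 2 wild-type mice gave 1 library of DPPIV- FAPs and 1 library of DPPIV+ FAPs, so 4 libraries were sequenced. FAPs were sorted as live cells (PI-) that were CD31-, CD45- and Sca1+. Both mice had been given a CSF1R inhibitor for 3 weeks and then a regular diet for 3 days, a treatment used to deplete macrophages and then let them return, and no library came from an untreated mouse. The labels do not give the strain, sex or age of the mice, and they name the tibialis anterior as the tissue, whereas the protocol describes muscle of both hindlimbs. Values below are given for mouse 1 and then for mouse 2, as read counts or as CPM, the count scaled to the TMM-normalized library size.

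Between 18240110 and 20879405 reads were counted on genes per library. Dpp4 had 1879 and 776 reads in DPPIV- FAPs and 13106 and 10476 in DPPIV+ FAPs, as the sort labels ask. Pdgfra, which defines FAPs, was at 1654 and 1473 CPM in DPPIV- FAPs and at 1238 and 1157 CPM in DPPIV+ FAPs, and was called lower (log2 fold change -0.38, SE 0.07, edgeR adjusted p = 7.56e-07). Of 6 FAP identity genes, 4 were called lower and 2 higher. Markers of other cells were present at levels that differed widely. The summed level of 6 macrophage markers was 318 and 188 CPM in DPPIV- FAPs and 198 and 180 CPM in DPPIV+ FAPs, and Pecam1, the gene of the CD31 protein used to exclude endothelium, was between 11.2 and 20.4 CPM. Tek, on the same endothelial list, was between 149 and 466 CPM and was higher in DPPIV+ FAPs (log2 fold change 1.42). Of the 6 genes on that list, 4 were called lower, Pecam1 (-0.43) among them. The sum over 6 markers of tenocytes, the cells of tendon, was between 1807 and 3827 CPM, to which Thbs4 and Fmod gave the most. Tnmd, Scx, Mkx and Kera were each at or below 89.4 CPM, far under Pdgfra. In bulk samples, fewer cells of a type and less RNA per cell cannot be told apart.

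Wnt proteins are secreted lipid-modified signals that bind frizzled receptors at the cell surface. Together with the co-receptors LRP5 or LRP6 they stop the destruction of beta-catenin, which enters the nucleus and switches on target genes through TCF/LEF factors. ROR and RYK receptors carry beta-catenin-independent Wnt signals. R-spondins bind LGR receptors and hold back the E3 ligases ZNRF3 and RNF43, which otherwise remove frizzled from the membrane. Fibroblasts also secrete inhibitors, which bind the ligand (SFRP proteins and WIF1) or the LRP co-receptor (DKK2). In muscle, Wnt signals are known for their part in regeneration and fibrosis.

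Genes were tested when they reached 2 CPM in at least 2 libraries, which 28 of the 38 members did, among 11588 genes in all. With edgeR's quasi-likelihood test in a model of mouse and cell type and a threshold of 0.05 on the adjusted p, 7 members were higher in DPPIV+ FAPs, 12 were lower and 9 did not pass. Of all genes tested, 15.9% were called higher and 17.2% lower, and of the members tested 25% were called higher and 42.9% lower. The members tested were also more abundant, with a median of 37.13 CPM against 24.99 CPM for all genes tested. Abundant genes get smaller p-values in this fit, and the part of abundance in these shares was not tested. The median log2 fold change (DPPIV+ over DPPIV-) of the members tested was -0.19, against -0.002 for all genes tested, and it was -0.09 in mouse 1 and -0.23 in mouse 2. Changes of at least 1 on the log2 scale were found in 6 members (21.4%) and in 7.79% of all genes tested. In 18 of the 19 members called, the sign was the same in both mice and the CPM of the groups did not overlap. The exception was Sfrp2. Called or not, the sign was the same in 23 of the 28 members tested and in 8447 of all 11588 genes tested. Overlap of the groups was not counted over all genes, and Fzd3, Fzd5 and Ryk, which were not called, did not overlap either. The calls came from the same values, so the absence of overlap is no further support for them. Fzd3 and Rspo1 passed the filter only through the DPPIV- libraries. Rspo1 is counted among the 12 lower members, the 6 larger changes and the 18 without overlap, so these counts depend in part on that selection. DESeq2 called 11 of the 19 members called, namely Lgr4, Dkk2 and Wif1 as higher and Fzd2, Fzd7, Lrp5, Lrp6, Ror1, Nkd1, Dkk3 and Sfrp1 as lower.

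**Figure D1:**
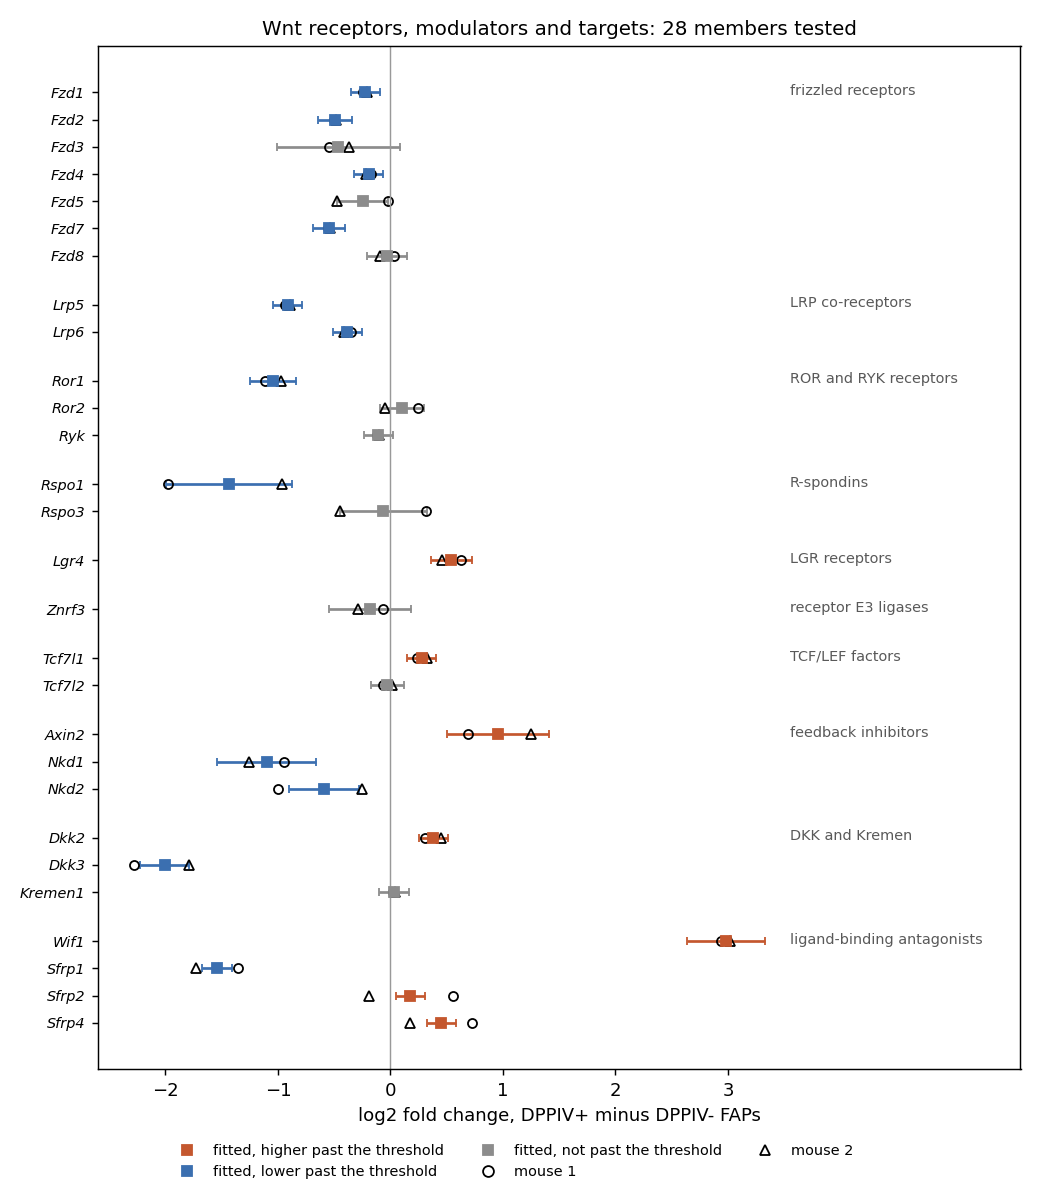
Log2 fold change of the 28 members tested, DPPIV+ minus DPPIV- FAPs, grouped by role. Squares are the fitted values with 95% intervals, circles are mouse 1 and triangles are mouse 2. The fitted values of the LRP co-receptors and of all 7 frizzled receptors tested lie left of 0, 4 of these frizzled receptors past the threshold. Wif1 stands farthest to the right at 2.98 and Dkk3 farthest to the left at -2.01. The points of the mice lie on both sides of 0 for Sfrp2, Fzd8, Ror2, Rspo3 and Tcf7l2.

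The frizzled receptors, the proteins to which Wnt ligands bind, were lower in DPPIV+ FAPs or did not pass the test. Of 7 tested, 4 were lower and 3 did not pass, with a median log2 fold change of -0.25. Fzd7 was at 64.9 and 57.5 CPM in DPPIV- FAPs and at 44.2 and 39.5 CPM in DPPIV+ FAPs. Fzd2 was at 57.0 and 52.2 CPM in DPPIV- FAPs and at 40.1 and 37.4 CPM in DPPIV+ FAPs. Both DPPIV- libraries were above both DPPIV+ libraries for each of these receptors, and the ratio was nearly the same in the mice. The log2 fold change of Fzd7 was -0.55 (SE 0.07, edgeR adjusted p = 5.72e-13) and that of Fzd2 was -0.49 (SE 0.08, edgeR adjusted p = 5.32e-10).

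Smaller differences were found for Fzd1 and Fzd4, the latter known as a receptor of Norrin as well as of Wnt ligands. Fzd1 was at 81.2 and 81.1 CPM in DPPIV- FAPs and at 68.5 and 70.4 CPM in DPPIV+ FAPs (fitted log2 fold change -0.23, SE 0.07, edgeR adjusted p = 0.0030, DESeq2 adjusted p = 0.284). Fzd4 was at 93.0 and 91.9 CPM in DPPIV- FAPs and at 82.8 and 79.2 CPM in DPPIV+ FAPs (fitted log2 fold change -0.19, SE 0.07, edgeR adjusted p = 0.0133, DESeq2 adjusted p = 0.396). The groups did not overlap for either receptor, and both calls were lost in DESeq2. Fzd3, Fzd5 and Fzd8 did not pass, with log2 fold changes of -0.46, -0.25 and -0.03. The ratio of Fzd5 was -0.02 in mouse 1 and -0.47 in mouse 2. The 95% interval of Fzd8 ran from -0.21 to 0.15. Summed over all 10 frizzled genes, the level was 346 and 336 CPM in DPPIV- FAPs and 284 and 272 CPM in DPPIV+ FAPs.

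Both co-receptors of the beta-catenin branch were lower in DPPIV+ FAPs. Lrp5 (chr19:3584828-3686564, GRCm38) was at 161 and 185 CPM in DPPIV- FAPs and at 84.4 and 99.8 CPM in DPPIV+ FAPs. Its DPPIV+ libraries were both far below its DPPIV- libraries, with a log2 fold change of -0.91 (SE 0.07, edgeR adjusted p = 8.24e-41). Lrp6 was at 198 and 222 CPM in DPPIV- FAPs and at 155 and 167 CPM in DPPIV+ FAPs. The groups did not overlap, and the log2 fold change was -0.38 (SE 0.07, edgeR adjusted p = 7.70e-08).

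Of the receptors outside the beta-catenin branch, Ror1 was lower and the other two did not pass. Ror1 (chr4:100095791-100444765), a receptor tyrosine kinase-like protein known to bind Wnt5a, was at 28.9 and 30.9 CPM in DPPIV- FAPs and at 13.3 and 15.8 CPM in DPPIV+ FAPs. Every DPPIV+ value lay below every DPPIV- value, and the log2 fold change was -1.04 (SE 0.10, edgeR adjusted p = 4.01e-22). Its relative Ror2 was at 21.7 and 24.3 CPM in DPPIV- FAPs and at 25.7 and 23.6 CPM in DPPIV+ FAPs, so the groups overlapped, with a 95% interval of the log2 fold change from -0.09 to 0.30. Ryk was at 115 and 118 CPM in DPPIV- FAPs and at 106 and 110 CPM in DPPIV+ FAPs, with an interval from -0.24 to 0.02.

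R-spondins, the secreted proteins that raise the number of frizzled receptors on a cell, had low counts. Rspo1 had 78 and 61 reads in DPPIV- FAPs and 17 and 29 in DPPIV+ FAPs. The DPPIV- libraries were the higher ones in both mice, with a log2 fold change of -1.43 (SE 0.29, edgeR adjusted p = 3.81e-06), and the call was lost in DESeq2 (adjusted p = 0.0538). Since Rspo1 reached the filter only in the DPPIV- libraries, where it is high, its call depends on that selection. Rspo3 had 108 and 136 reads in DPPIV- FAPs and 116 and 93 in DPPIV+ FAPs, and the mice moved in opposite directions. Rspo2 stayed under the filter with 43 and 30 reads in DPPIV- FAPs and 13 and 19 in DPPIV+ FAPs. Rspo4 had at most 9 reads in a library.

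Lgr4, the R-spondin receptor with the most reads here, was higher in DPPIV+ FAPs. It was at 21.1 and 24.3 CPM in DPPIV- FAPs and at 32.5 and 33.4 CPM in DPPIV+ FAPs. The groups did not overlap, and the log2 fold change was 0.54 (SE 0.09, edgeR adjusted p = 3.66e-08, DESeq2 adjusted p = 0.0133). Lgr5, a stem cell marker and Wnt target in epithelia, had 8 and 16 reads in DPPIV- FAPs and 12 and 18 in DPPIV+ FAPs, and Lgr6 had at most 3 reads in a library. Among the E3 ligases, Znrf3 was at 6.34 and 7.81 CPM in DPPIV- FAPs and at 6.04 and 6.41 CPM in DPPIV+ FAPs and did not pass (95% interval of the log2 fold change from -0.54 to 0.18). Rnf43 had 1 read in all.

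Of the TCF/LEF factors, through which beta-catenin acts on genes, Tcf7l1 and Tcf7l2 were the ones measured above the filter. Tcf7l1, best known as a repressor of Wnt targets, was at 78.4 and 75.5 CPM in DPPIV- FAPs and at 92.2 and 94.7 CPM in DPPIV+ FAPs. Both DPPIV+ libraries were higher, with a log2 fold change of 0.28 (SE 0.07, edgeR adjusted p = 1.09e-04), and DESeq2 did not call it (adjusted p = 0.0967). Tcf7l2 was at 45.6 and 48.1 CPM in DPPIV- FAPs and at 43.6 and 48.4 CPM in DPPIV+ FAPs, overlapping values with a 95% interval of the log2 fold change from -0.17 to 0.12. Tcf7 had between 1 and 7 reads per library. Lef1 had 0 reads in all 4 libraries, which allows a level of up to 0.1437 to 0.1645 CPM, counting error only.

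The feedback inhibitors are themselves switched on by beta-catenin and are often read as a sign of the response, and here they did not move together. Axin2 (chr11:108920349-108950783), a scaffold of the beta-catenin destruction complex, had 67 and 45 reads in DPPIV- FAPs and 93 and 100 in DPPIV+ FAPs. Both DPPIV+ libraries were higher, with log2 ratios of 0.69 in mouse 1 and 1.25 in mouse 2. Its fitted log2 fold change was 0.95 (SE 0.23, edgeR adjusted p = 2.09e-04), and the call was lost in DESeq2 (adjusted p = 0.106). Nkd1 (chr8:88521354-88594884), which binds Dishevelled, went the other way, with 121 and 131 reads in DPPIV- FAPs and 54 and 51 in DPPIV+ FAPs. Its groups were well apart, and the log2 fold change was -1.10 (SE 0.22, edgeR adjusted p = 6.25e-06, DESeq2 adjusted p = 0.0315). Nkd2 had 225 and 222 reads in DPPIV- FAPs and 97 and 174 in DPPIV+ FAPs. The DPPIV+ libraries were lower in both mice but unequally, with log2 ratios of -0.996 and -0.25, a fitted value of -0.59 (SE 0.16, edgeR adjusted p = 0.0010) and no call in DESeq2 (adjusted p = 0.180).

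The promoters of Axin2, Nkd1 and Wif1, which moved in different directions, are printed with that of Fzd7, which holds a core TCF/LEF motif. They are RefSeq windows on GRCm38.p6, all on the plus strand and 5′ to 3′. They hold the 250 bases before the start site, cut where an exon in GENCODE M21 begins earlier. The spans are chr11:108920099-108920348 for Axin2, chr8:88527383-88527632 for Nkd1, chr10:121033754-121033959 for Wif1 and chr1:59481897-59482146 for Fzd7. The start site of Nkd1 is inside the span of the gene in GENCODE M21. The Wif1 sequence was cut to 206 bases and ends short of its start site at 121034004. Capitals mark the motif, read on the minus strand.
Axin2: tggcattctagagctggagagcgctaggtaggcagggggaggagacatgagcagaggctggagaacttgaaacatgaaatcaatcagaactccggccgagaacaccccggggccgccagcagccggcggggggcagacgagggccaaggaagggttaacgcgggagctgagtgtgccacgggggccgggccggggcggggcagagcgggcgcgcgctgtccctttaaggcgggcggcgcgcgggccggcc
Nkd1: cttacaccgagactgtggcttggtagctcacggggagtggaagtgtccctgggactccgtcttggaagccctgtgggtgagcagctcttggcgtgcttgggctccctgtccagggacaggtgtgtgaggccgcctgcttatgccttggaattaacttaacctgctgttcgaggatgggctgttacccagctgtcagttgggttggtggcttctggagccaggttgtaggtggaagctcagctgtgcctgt
Wif1: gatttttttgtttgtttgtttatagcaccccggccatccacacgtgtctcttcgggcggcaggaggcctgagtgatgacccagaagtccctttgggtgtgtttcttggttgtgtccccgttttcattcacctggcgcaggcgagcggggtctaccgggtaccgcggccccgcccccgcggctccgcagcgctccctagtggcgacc
Fzd7: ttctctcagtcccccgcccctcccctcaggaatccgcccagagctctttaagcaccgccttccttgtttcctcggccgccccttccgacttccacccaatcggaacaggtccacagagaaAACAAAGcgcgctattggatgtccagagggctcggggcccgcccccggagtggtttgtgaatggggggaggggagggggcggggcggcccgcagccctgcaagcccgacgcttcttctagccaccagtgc

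The letters searched were CTTTGAT and CTTTGTT on both strands, in whole RefSeq windows from 250 bases before to just after the start site. A window was found for 24 of the 38 members, 30 windows in all. The members without one were Fzd2, Fzd3, Fzd6, Fzd8, Lrp5, Lrp6, Rspo2, Rspo3, Lgr5, Znrf3, Dkk3, Kremen1, Sfrp1 and Sfrp4. A match was present in 2 of the 30 windows (6.67%), that of Fzd7 at position -130 from the start site and a Tcf7l2 window at position -14. Over all 32851 windows, 9.33% held a match. The windows of Axin2, Nkd1 and Wif1 held these letters nowhere, which says nothing about sites elsewhere in these genes.

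**Figure D2:**
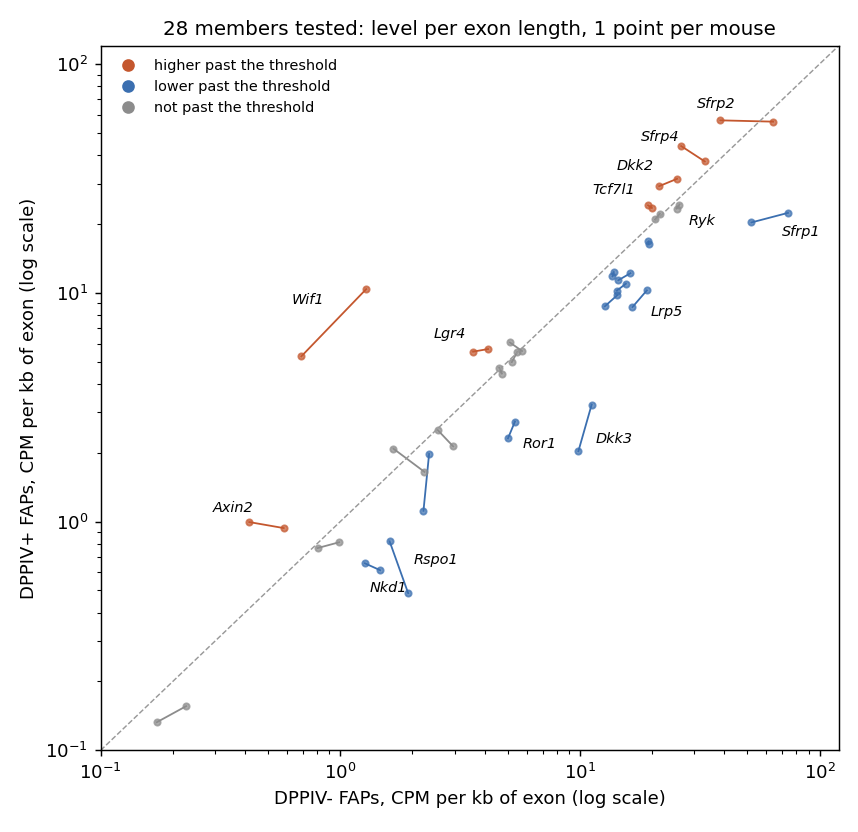
Level of each of the 28 members tested in DPPIV- FAPs (x axis) and DPPIV+ FAPs (y axis), in CPM per kb of exon on log scales, with 1 point per mouse joined by a line and the dashed line marking equal levels. Sfrp1 falls below the line near the top of the DPPIV- range, at a mean of 62.9 against 21.3, and Wif1 lies far above it, at 0.985 against 7.83.

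The secreted antagonists held the largest differences of all members, in both directions. Wif1 (chr10:121033960-121100650), which binds Wnt ligands outside the cell, had 35 and 61 reads in DPPIV- FAPs and 231 and 460 in DPPIV+ FAPs, or 1.67 and 3.11 CPM against 12.8 and 25.2 CPM. The DPPIV+ library was the higher one in each mouse, by log2 ratios of 2.93 and 3.01, and both libraries of mouse 2 were above the matching libraries of mouse 1. The fitted log2 fold change was 2.98 (SE 0.18, edgeR adjusted p = 1.39e-60).

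Tenocyte markers moved with Wif1. Of 6 such markers 5 rose, namely Tnmd, Scx, Mkx, Kera and Fmod, with log2 fold changes from 1.27 for Tnmd to 2.26 for Fmod, while Thbs4 was called lower at -0.20 with opposite signs in the mice. Scx passed the filter only through the DPPIV+ libraries, where it is high, so its call depends on that selection. Their summed level was 1807 and 2406 CPM in DPPIV- FAPs and 1934 and 3827 CPM in DPPIV+ FAPs, and each of the 6 was detected in every library. All 6 were also higher in mouse 2 than in mouse 1 (log2 difference from 0.52 to 1.07), as Wif1 was (0.96, SE 0.17, edgeR adjusted p = 8.25e-07). Their part in the Wif1 result was not tested.

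Dkk3 and Sfrp1 showed the opposite pattern. Dkk3 (chr7:112116017-112159057) is a divergent member of the Dickkopf family that was listed here with the antagonists. It was at 33.1 and 37.6 CPM in DPPIV- FAPs and at 6.82 and 10.9 CPM in DPPIV+ FAPs. The groups were far apart, and the log2 fold change was -2.01 (SE 0.11, edgeR adjusted p = 3.22e-70). Sfrp1 (chr8:23411502-23449632), a secreted protein with a frizzled-like ligand-binding domain, was at 227 and 323 CPM in DPPIV- FAPs and at 88.7 and 97.7 CPM in DPPIV+ FAPs. Both mice showed the fall, with log2 ratios of -1.36 and -1.72 and a fitted value of -1.54 (SE 0.07, edgeR adjusted p = 1.45e-106).

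Markers of mural cells, the pericytes and smooth muscle cells of vessels, moved the same way as Dkk3 and Sfrp1. Of 6 mural markers 5 fell in DPPIV+ FAPs, by up to 1.60 on the log2 scale for Notch3, and Myh11 did not pass (-0.28). DESeq2 called 3 of them lower and did not call Rgs5 or Mcam (adjusted p = 0.439 and 0.209). Among those that fell, Kcnj8 passed the filter only through the DPPIV- libraries, where it is high, so its call depends on that selection. Their summed level was 121 and 123 CPM in DPPIV- FAPs and 51.0 and 63.4 CPM in DPPIV+ FAPs, with all 6 detected in every library. Lower calls were also made on other lists, for 4 of 6 macrophage and 4 of 6 blood endothelium markers, while Tek was higher. DESeq2 made none of these lower calls. Of those tested, 2 of 5 glia and perineurium and 1 of 3 satellite cell and myofibre markers were lower. The part of mural or other cells in the falls of Dkk3, Sfrp1 and the receptors was not tested.

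**Figure D3:**
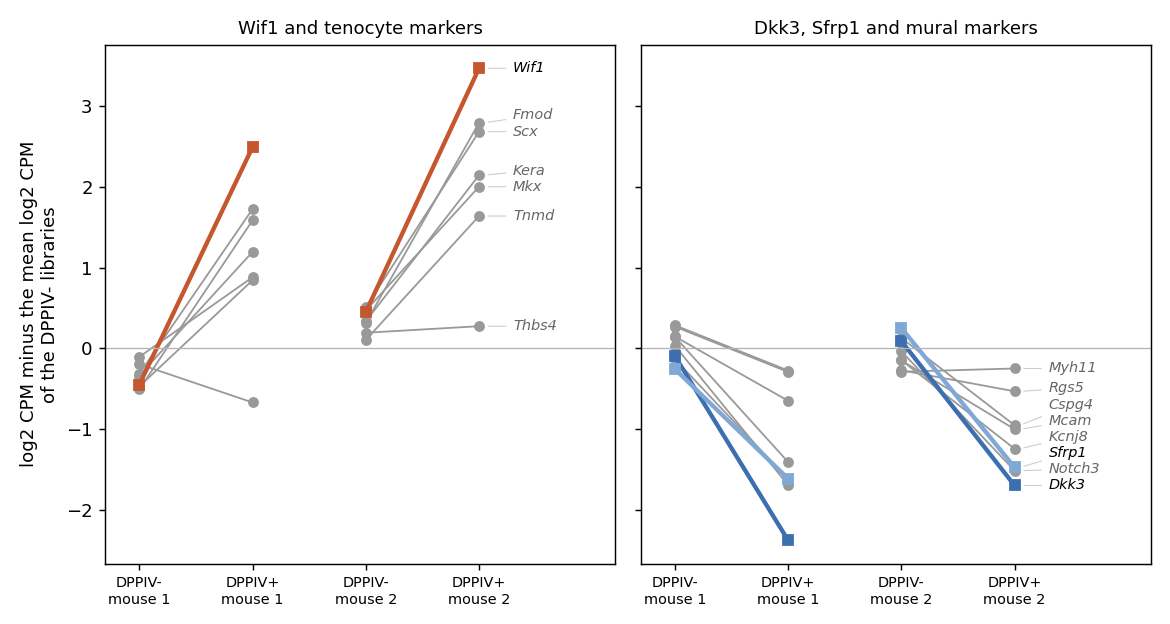
Log2 CPM of each gene minus its mean log2 CPM in the DPPIV- libraries, for the 4 libraries, with the libraries of a mouse joined by a line. Left, Wif1 (orange) with 6 tenocyte markers (grey), of which 5 rise in both mice. Right, Dkk3 and Sfrp1 (blue) with 6 mural markers (grey), of which 5 fell past the threshold.

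The remaining antagonists differed less. Dkk2, which binds LRP co-receptors, was at 94.3 and 79.3 CPM in DPPIV- FAPs and at 117 and 108 CPM in DPPIV+ FAPs. The groups did not overlap, and the log2 fold change was 0.38 (SE 0.07, edgeR adjusted p = 7.09e-08, DESeq2 adjusted p = 0.0081). Kremen1, the cell-surface partner of some Dickkopf proteins, was at 159 and 166 CPM in DPPIV- FAPs and at 162 and 171 CPM in DPPIV+ FAPs. The values overlapped, with a 95% interval of the log2 fold change from -0.10 to 0.16.

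Sfrp2 and Sfrp4 were called higher, but the mice disagreed on the size or the sign. Sfrp4 was at 111 and 139 CPM in DPPIV- FAPs and at 183 and 157 CPM in DPPIV+ FAPs. The DPPIV+ library was higher in each mouse, by log2 ratios of 0.73 and 0.18, and the fitted value of 0.45 (SE 0.07, edgeR adjusted p = 1.14e-10) was not called by DESeq2 (adjusted p = 0.372). Sfrp2 was at 83.0 and 138 CPM in DPPIV- FAPs and at 122 and 121 CPM in DPPIV+ FAPs. The DPPIV+ values lay between the DPPIV- values, with log2 ratios of 0.56 in mouse 1 and -0.19 in mouse 2. The fitted value was 0.18 (SE 0.07, edgeR adjusted p = 0.0272), and DESeq2 gave an adjusted p of 0.941, so a difference in Sfrp2 did not hold up against the difference between the mice.

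**Figure D4:**
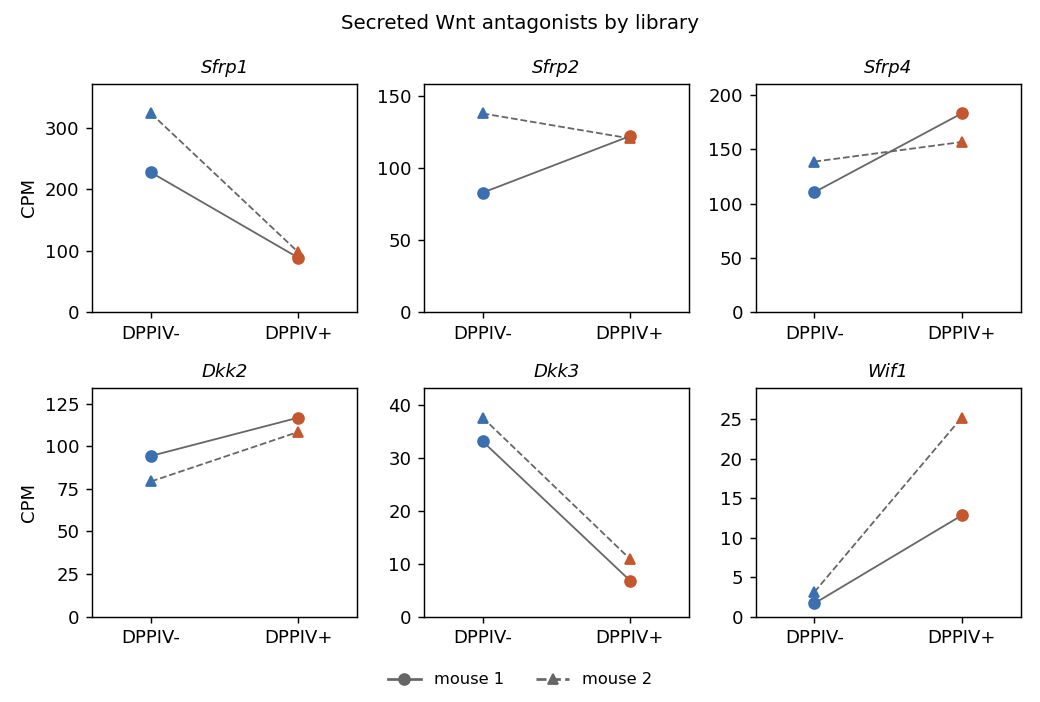
Level in CPM of 6 secreted antagonists in each library, with the libraries of a mouse joined by a line. Sfrp1 and Dkk3 are lower and Wif1 and Dkk2 higher in DPPIV+ FAPs of both mice, while Sfrp2 goes from 83.0 to 122 in mouse 1 and goes from 138 to 121 in mouse 2.

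Set per length, the 3 SFRP genes had the highest mean levels of the members in DPPIV- FAPs. Sfrp1 was at 62.9 ± 15.5 CPM per kb of exon (SD, n = 2), Sfrp2 at 51.3 ± 18.02 and Sfrp4 at 29.8 ± 4.76, and neither Sfrp1 from Sfrp2 nor Sfrp4 from the next member, Ryk, differed beyond the spread. The most abundant members in DPPIV+ FAPs were Sfrp2 at 56.4 ± 0.53 CPM per kb, Sfrp4 at 40.7 ± 4.44 and Dkk2 at 30.4 ± 1.60. Sfrp1 was in place 7 there, at 21.3 ± 1.45, next to Kremen1 at 21.5 ± 0.86 and not apart from it beyond the spread. Wif1 moved from place 25 to place 14 among the 38 members. The most abundant receptor in both groups was Ryk, at 25.7 ± 0.50 and 23.8 ± 0.68 CPM per kb, and among the frizzled receptors it was Fzd1, at 19.3 ± 0.01 and 16.5 ± 0.33. The summed level of Wif1 and the SFRP genes was 422 and 603 CPM in DPPIV- FAPs and 407 and 400 CPM in DPPIV+ FAPs.

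The other members under the filter were frizzled genes. Fzd6 had 33 and 31 reads in DPPIV- FAPs and 16 and 14 in DPPIV+ FAPs. Fzd9 had 1 and 2 reads against 2 and 10, and Fzd10 had 4 and 3 against 8 and 17. At the filter used here they were not tested. When genes with 10 counts in every library were tested instead, Fzd6 was called lower (log2 fold change -0.92, edgeR adjusted p = 0.0389), as was Rspo2 (edgeR adjusted p = 0.0164), and with no filter neither was called (edgeR adjusted p = 0.132 and 0.0664), nor was Fzd9 (0.344) or Fzd10 (0.101).

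The mice differed from each other in 5 of the 28 members tested (17.9%), against 8.98% of all genes tested, by the mouse term of the same edgeR fit. All 5 were higher in mouse 2 by the fitted term, and 4 of them were antagonists. For Sfrp2 this held in DPPIV- FAPs (83.0 and 138 CPM) and not in DPPIV+ FAPs (122 and 121 CPM). Under RLE normalization the count was 4, as it was under robust moderation. Besides Wif1, the log2 difference was 0.34 for Sfrp1 (edgeR adjusted p = 3.57e-05), 0.36 for Sfrp2 (edgeR adjusted p = 4.98e-06), 0.34 for Dkk3 (edgeR adjusted p = 0.0240) and 0.22 for Lrp5 (edgeR adjusted p = 0.0151).

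Beside the members stand the ligands and the commonly named target genes. Of 19 Wnt ligand genes, 8 were tested and 7 of these were called higher in DPPIV+ FAPs, 5 of them by DESeq2. Wnt1 and Wnt2b passed the filter only through the DPPIV+ libraries, where they are high, so their calls depend on that selection. Wnt10b rose by 2.98 and Wnt2 by 2.12 on the log2 scale, and the fitted values were 2.97 for Wnt1 and 1.97 for Wnt2b. Some ligands under the filter had fewer reads in DPPIV+ FAPs. Wnt4 had 18 and 20 reads in DPPIV- FAPs and 1 and 8 in DPPIV+ FAPs, and Wnt6 had 23 and 9 against 2 and 3, both named after their values were seen. The level summed over all 19 ligand genes was 174 and 170 CPM in DPPIV- FAPs and 310 and 286 CPM in DPPIV+ FAPs, while the summed frizzled and LRP levels moved the other way. Of 7 further target genes tested, 5 were higher and 1 was lower, with a median of 0.29. These genes are named after their values were seen. The higher ones were Dact1 (0.92), which acts on Dishevelled, the cyclin gene Ccnd1 (0.84), Myc (0.45), Twist1 (0.29) and Fgf18 (0.28), of which DESeq2 called Dact1, Ccnd1 and Myc, and Cd44 was lower (-0.52). The target Sp5 had 0 reads in all libraries.

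Several members share exon bases with a gene on the opposite strand in GENCODE M21, and how the counting used strand is not given in the sources used here. Axin2 shares 209 bases with Gm11670, Fzd5 1233 with Gm38058, Rspo3 404 with Gm48159, Sfrp2 347 with Gm26771 and Tcf7l1 179 with Gm15401, which had 0 reads. The others of these antisense genes have no row in the counts, so reads from them could not be told apart from those of the members.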

How the data were processed

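DPPIV- and DPPIV+ FAPs of 2 mice were measured by bulk RNA sequencing. Raw counts per gene symbol were deposited, with no normalization or filter, after the authors' alignment to mm10 by STAR and counting by RnaReadCounter. Bowtie and bcl2fastq 2.20 are also named in the submitters' processing notes. The annotation release and the use of strand are not given in the sources used here. The labels name the NEBNext Ultra II stranded kit and the paper a TruSeq Stranded kit.

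Counts were fitted by edgeR 4.0.16 and limma 3.58.1 under R 4.3.3: TMM on full library totals, a minimum of 2 CPM in 2 or more libraries, mouse and cell type as terms, a two-sided quasi-likelihood F test without robust moderation, and Benjamini-Hochberg adjustment over all 11588 genes at 0.05. Mouse was a block because each animal gave both cell types, and the mouse difference seen in 1 cell type correlated with that in the other (0.4455 over genes, which are no independent replicates). With 1 residual degree of freedom and an infinite estimate for the prior ones, a gene's spread was that of the abundance trend, which gives abundant genes very small p-values. SE is the log2 fold change over the square root of F, and intervals are normal ones. Log2 ratios per mouse used a prior count of 0.125. Depths of 18240110 to 20879405 reads make 3 reads worth 0.1437 to 0.1645 CPM, and limits cover counting error only.

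DESeq2 1.42.0 and the other alternatives are in the closing section. Scripts were tested on simulated counts. Exon lengths, positions and overlaps came from GENCODE M21 (GRCm38) and promoters from RefSeq, read with pandas 2.3.3 and numpy 2.4.6 (Python 3.11.15). Every member is named. Of the other pathway lists, genes past the threshold with a log2 fold change of at least 1 in size are named. Further ligand, target and planar polarity genes outside this rule are also named, some after their values were seen. The members and lists were chosen with earlier results of these data known.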

Additional observations from a re-analysis of the deposited data

How the results depend on the processing

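With only 2 mice, the p-values rest on a spread borrowed from other genes, and low counts limit Rspo1, Axin2, Nkd1 and the 10 members under the filter. The count of members higher in DPPIV+ FAPs, 7, became 3 with DESeq2's Wald test and 1 when a change beyond 1.5-fold was tested, and the count lower, 12, became 6 under the latter. Of 44 other Wnt pathway genes tested, those higher (16) became 7 with DESeq2, 8 without the mouse block and 2 beyond 1.5-fold, and those lower (11) became 6 with DESeq2 and 4 beyond 1.5-fold. Without the block that pairs the libraries of a mouse, 6 members were higher and 9 lower. Over all genes, the counts were 1837 higher and 1989 lower, 923 and 995 with DESeq2, 1001 and 1119 without the block, and 436 and 656 beyond 1.5-fold. The cause of these differences was not tested. Under RLE or upper-quartile normalization, no filter, 10 counts in every library or robust moderation, both member counts stayed within 1.5 times. With 10 counts in every library, 14 members were lower. Sfrp2 lost its call with DESeq2, without the block, under RLE and upper-quartile normalization, under robust moderation and beyond 1.5-fold, and its log2 fold change ran from -0.19 without mouse 1 to 0.56 without mouse 2. Kremen1, not called, changed sign to -0.0117 under upper-quartile normalization. Leaving out a mouse, which allows no test, also moved the called values of Nkd2 (-0.996 to -0.25) and Sfrp4 (0.18 to 0.73) by over 1.5 times against the value from both mice. Among members not called, Fzd5 ran from -0.47 to -0.02 and Znrf3 from -0.285 to -0.07, and Fzd8, Ror2, Rspo3 and Tcf7l2 had opposite signs in the mice. The median over members ran from -0.23 to -0.09. Of 224 single-member values under these alternatives with both mice, 195 kept their direction and side of the threshold.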

Other observations

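Genes listed with planar polarity, which organises cells through a Wnt branch without beta-catenin, were more often lower than higher in DPPIV+ FAPs. Of 8 tested, 5 were lower and 1 was higher, with a median log2 fold change of -0.85 against -0.002 for all genes tested, and DESeq2 called the same numbers. Daam1 was the higher one (0.46), Vangl1 (0.09) and Vangl2 (-0.42) did not pass, and the Celsr genes were under the filter. Dact3 was counted on this list, whereas Dact1 (0.92) was counted with the target genes. Ptk7, a pseudokinase that binds Wnt receptors, was at 16.5 and 22.6 CPM in DPPIV- FAPs and at 3.66 and 4.82 CPM in DPPIV+ FAPs (fitted log2 fold change -2.20, SE 0.16, edgeR adjusted p = 2.39e-43). Dact3 was at 45.1 and 51.6 CPM against 17.1 and 18.8 CPM (-1.43, SE 0.09). Prickle1 was at 37.1 and 46.2 CPM against 16.2 and 17.96 CPM (-1.28, SE 0.09). Daam2, a formin that binds Dishevelled, was at 48.9 and 59.8 CPM against 20.1 and 25.7 CPM (-1.25, SE 0.08). The groups did not overlap for Ptk7, Dact3, Prickle1 or Daam2, and the part of the mural cells whose markers fell alongside was not tested.

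The intracellular machinery moved less. Of 14 genes of the destruction complex and Dishevelled, 5 were higher, 1 was lower and 8 did not pass, with log2 fold changes from -0.55 to 0.36 and 1 call in DESeq2. Of 11 nuclear cofactors tested, 3 were higher, 4 were lower and 4 did not pass, with log2 fold changes from -0.51 to 0.39 and 1 call in DESeq2. Both genes tested for ligand secretion and removal did not pass (-0.30 and 0.10), and both further secreted inhibitors tested were higher (0.21 and 0.71).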
